A study of Mus musculus with 6 samples.

Results

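The 9 genes described here are markers of tuft cells, chosen by name: Dclk1, Trpm5, Pou2f3, Sucnr1, Lrmp, Siglecf, Avil, Il25 and Gfi1b. Each was represented by the 1 probe set, among those annotated to that gene alone, with the highest mean over all 6 arrays, and all 9 were found among the 18193 genes measured. The arrays hold RNA of large intestine from C57BL/6J mice, an inbred strain, all female and untreated, with 3 libraries labelled proximal colon and 3 labelled distal colon. Both regions came from the same 3 animals, as the design text puts it, and no gene deletion, transgene or agent is named for any group. Values are log2 expression, so a difference of 1 is a 2-fold change.

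Tuft cells are rare chemosensory cells of the epithelium, with a stiff bundle of microvilli at the luminal end. They sense luminal molecules through G protein-coupled receptors and a taste-type cascade that ends in opening of the cation channel Trpm5. Activated tuft cells release the cytokine Il25, lipid mediators and acetylcholine, and through Il25 they drive type 2 immunity. The transcription factor Pou2f3 is required for them to form. In RNA of whole tissue, fewer cells of a type and less RNA per cell cannot be told apart.

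Regional genes of a pair of libraries went against their labels. The posterior Hox gene Hoxb13 was high in proximal 1 (13.39), distal 1 (13.78) and distal 2 (13.29) and low in proximal 2 (6.53), proximal 3 (6.48) and distal 3 (6.65), where each library is named by its label. Slc51a, a bile acid exporter subunit, ran the other way, with 5.83 in proximal 1 and 12.05 in distal 3. Each result is therefore given with all 6 libraries as labelled, and again without the libraries labelled proximal 1 and distal 3. The array medians over all probe sets ran from 7.90 to 8.02. Over the probe sets kept for the genes they were 9.33, 9.32 and 9.36 in proximal 1, 2 and 3. They were 9.23, 9.27 and 9.32 in distal 1, 2 and 3. The 10 listed epithelial markers, such as Epcam and Krt8, had a summed level (log2 of the sum) of 17.15, 17.33 and 17.35 in proximal 1, 2 and 3. It was 17.21, 17.20 and 17.32 in distal 1, 2 and 3, and thus lower in the libraries where Hoxb13 was high. The median difference of the 10 was -0.075 without proximal 1 and distal 3, where that of all genes was -0.045. Of these 10 epithelial genes, Krt20 was lower in distal libraries in the 4-library comparison and the other 9 did not pass.

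RefSeq (GRCm38.p6) held promoters of 6 of the 9 members, and 4 are shown. Sucnr1 and Siglecf are the pair of members that passed and were high in the same libraries, and Avil and Trpm5 are members that were high in another set of libraries. The motif searched was ATGCAAAT, the octamer bound by POU factors of the family of Pou2f3, and its first 7 bases, ATGCAAA, which lie inside the octamer. Both strands were searched in the 250 bases before the listed start, and matches stand in capitals. Sucnr1 and Siglecf, first shown, lie at chr3:60081619-60081868 and chr7:43351091-43351340, both on the plus strand. Avil and Trpm5 follow, at chr10:127000459-127000708 on the plus strand and chr7:143094643-143094892 on the minus strand.
Sucnr1: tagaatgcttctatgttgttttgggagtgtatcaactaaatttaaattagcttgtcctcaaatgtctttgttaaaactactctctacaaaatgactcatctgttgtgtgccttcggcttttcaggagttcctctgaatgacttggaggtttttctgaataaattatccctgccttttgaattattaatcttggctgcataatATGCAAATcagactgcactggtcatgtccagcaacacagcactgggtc
Siglecf: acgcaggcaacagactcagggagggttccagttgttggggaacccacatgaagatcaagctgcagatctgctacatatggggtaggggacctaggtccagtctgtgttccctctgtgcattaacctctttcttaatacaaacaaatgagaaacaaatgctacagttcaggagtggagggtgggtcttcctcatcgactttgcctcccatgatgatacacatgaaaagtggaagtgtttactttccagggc
Avil: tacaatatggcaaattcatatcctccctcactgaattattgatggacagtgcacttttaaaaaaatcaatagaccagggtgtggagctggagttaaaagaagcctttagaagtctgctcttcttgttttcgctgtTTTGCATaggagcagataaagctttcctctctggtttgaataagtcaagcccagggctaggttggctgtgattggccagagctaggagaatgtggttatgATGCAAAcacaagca
Trpm5: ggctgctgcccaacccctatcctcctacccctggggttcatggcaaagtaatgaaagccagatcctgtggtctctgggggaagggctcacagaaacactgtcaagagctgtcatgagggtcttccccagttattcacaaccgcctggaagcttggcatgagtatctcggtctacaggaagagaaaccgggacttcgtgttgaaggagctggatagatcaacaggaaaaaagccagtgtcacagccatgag
The octamer was in the Sucnr1 promoter, from 48 to 41 bases before the start, and in 1.60% of all 32851 promoters of this length. The 7-base form was also in the Avil promoter, at 2 places, and in 4.12% of all promoters. The shown windows of Siglecf and Trpm5 did not hold these letters, nor did those of Dclk1 and Gfi1b. The motif was chosen after the promoters were read, so the shares of all promoters are no test of the members. A match is a description of the letters and does not show that a factor binds there.

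As labelled, the question of whether tuft cell genes differ between proximal and distal colon gave 0 of 9 members past the test (limma, adjusted p threshold 0.05). The percentage called among all genes was 0%, and 3.05% of all genes had an unadjusted p under 0.05, against 0 of the 9 members. The differences, distal minus proximal, ran from -0.57 for Sucnr1 to 0.60 for Lrmp, with adjusted p from 0.824 to 0.928. Values of the labelled groups overlapped in all 9 genes. Among all genes 7.33% did not overlap. The titles call every library a biological control. Both regions came from the same animals, yet the fits with and without proximal 1 and distal 3 took the libraries as independent. Nothing in the sources used here says whether libraries of the same label came from separate extractions. The p-values therefore reflect no more than the spread among these arrays, part of which may be technical.

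Without the libraries labelled proximal 1 and distal 3, the succinate receptor Sucnr1 and the lectin Siglecf were lower, and Lrmp was higher, in distal libraries. These 3 of 9 members are 33.3%, where 19.2% of all 18193 genes passed, with 7.71% higher in the distal pair and 11.5% higher in the proximal pair. The other 6 members did not pass, namely Dclk1, Trpm5, Pou2f3, Avil, Il25 and Gfi1b. This fit compares 2 libraries with 2, and the libraries left out were chosen for their own profiles, so its p-values describe these 4 libraries and overstate the evidence. The split of all calls moved with the scaling: 40.1% were higher in distal libraries as deposited, 50.3% after quantile normalization, 54.7% after median centring and 58.7% relative to epithelial markers. The calls of Sucnr1, Siglecf and Lrmp kept their direction and side of the threshold under those 3 scalings. With proximal 2 or proximal 3 left out as well, 0 members passed, and with distal 1 or distal 2 left out 3 did.

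**Figure D1:**
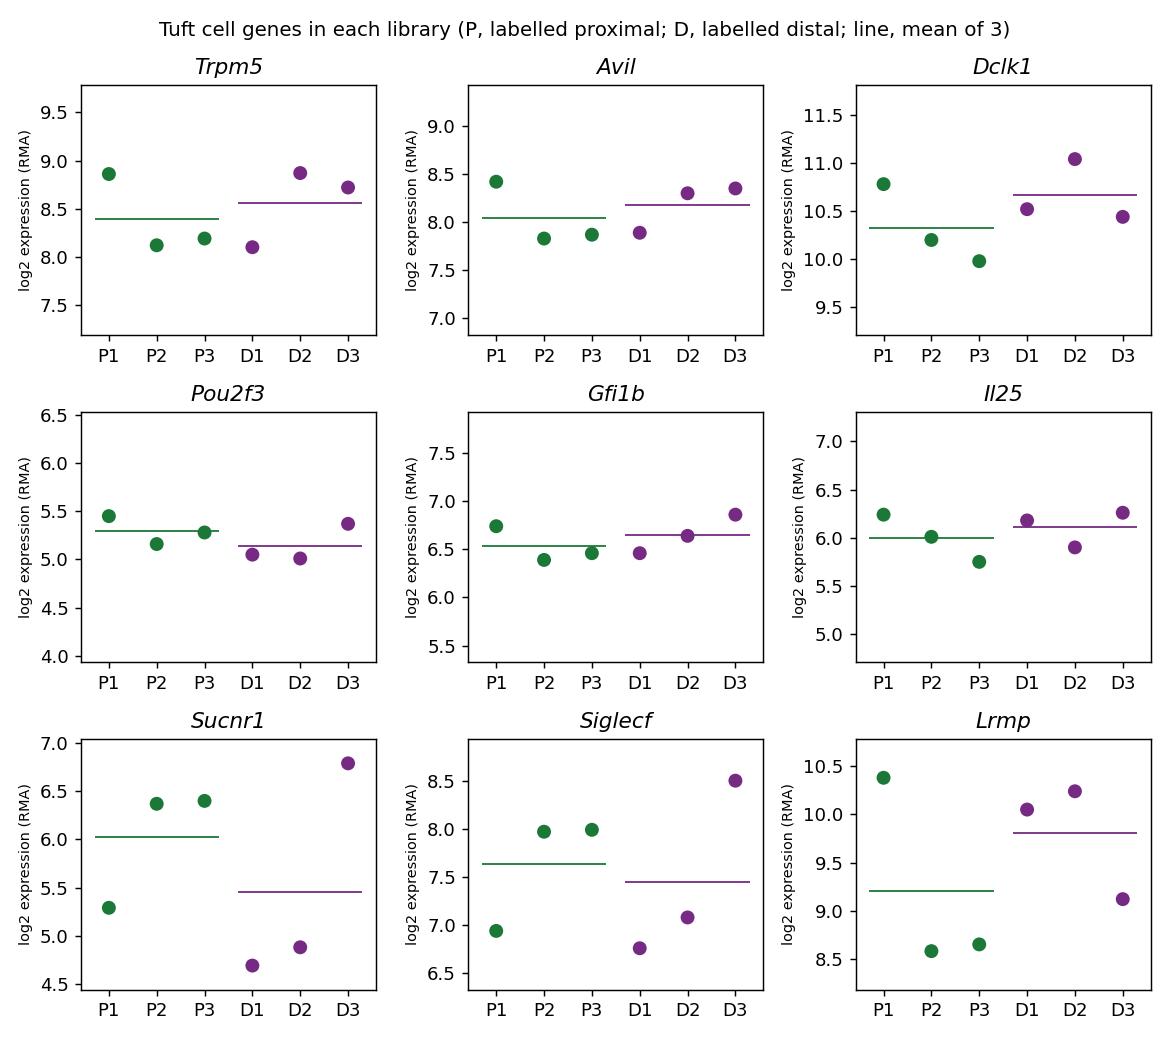
Log2 expression (vertical axis, the same height in log2 units in every panel) of the 9 tuft cell genes in the 3 libraries labelled proximal (P1 to P3) and the 3 labelled distal (D1 to D3), with a line at each group's mean. Sucnr1 and Siglecf are high in P2, P3 and D3, Lrmp is high in P1, D1 and D2, and Trpm5 and Avil are high in P1, D2 and D3.

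Among the sensors, Sucnr1, the receptor through which tuft cells respond to succinate from microbes, had the widest span of the members. It measured 5.29, 6.37 and 6.40 in proximal 1, 2 and 3, and 4.69, 4.88 and 6.79 in distal 1, 2 and 3. The highest value was in a library labelled distal and the groups overlapped. As labelled the means were 6.02 ± 0.63 (SD, n = 3) in proximal and 5.45 ± 1.16 (SD, n = 3) in distal libraries, and they differed by -0.57 (SE 0.61, limma adjusted p = 0.834). In the 4-library fit the difference was -1.60 (SE 0.12, limma adjusted p = 0.00184), a 3.03-fold lower level in distal 1 and 2 than in proximal 2 and 3. All values except that of distal 3 were below 6.54, under which 25% of the gene values on these arrays lie and where background can mask a lower level. The size of that difference is therefore uncertain, and its values ran from -1.47 relative to epithelial markers to -1.70 without distal 2 as well.

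Trpm5, the calcium-activated cation channel that depolarises taste and tuft cells, measured 8.86, 8.12 and 8.19 in proximal 1, 2 and 3, and 8.10, 8.87 and 8.72 in distal 1, 2 and 3. High values were found under both labels, in proximal 1 and in distal 2 and 3. The difference was 0.17 as labelled (SE 0.28, limma adjusted p = 0.871). In the 4-library fit it was 0.33 (SE 0.26, limma adjusted p = 0.427), and without distal 2 as well it turned to -0.055. All 3 Trpm5 probe sets had the same sign, with differences of 0.19 to 0.33 in the 4 libraries.

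Pou2f3, the transcription factor that sets the tuft cell fate, had values of 5.45, 5.16 and 5.28 in proximal 1, 2 and 3, and 5.05, 5.01 and 5.37 in distal 1, 2 and 3. The whole range of 0.44 lay below the lower quartile of the arrays. The difference was -0.15 as labelled (SE 0.14, limma adjusted p = 0.824) and -0.19 in the 4-library fit (SE 0.11, limma adjusted p = 0.285). Gfi1b, a zinc finger repressor of blood lineages that is also a tuft cell marker, measured 6.74, 6.39 and 6.46 in proximal and 6.46, 6.64 and 6.86 in distal libraries, in order of their number. Its values straddled the lower quartile and overlapped between labels. The difference was 0.12 as labelled (SE 0.15, limma adjusted p = 0.848) and 0.13 without proximal 1 and distal 3 (SE 0.12, limma adjusted p = 0.513), with 0.04 when distal 2 and 0.22 when distal 1 was left out as well.

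Dclk1, a microtubule-associated kinase and the marker most used to stain tuft cells, measured 10.78, 10.20 and 9.98 in proximal 1, 2 and 3, and 10.52, 11.04 and 10.44 in distal 1, 2 and 3. All distal libraries were above proximal 2 and 3, and proximal 1 was above distal 1 and 3. The difference was 0.35 as labelled (SE 0.26, limma adjusted p = 0.824). In the 4-library fit it was 0.69 (SE 0.20, limma adjusted p = 0.0697), a 1.61-fold level, and it ran from 0.43 without distal 2 to 0.95 without distal 1. Under other settings of that fit the adjusted p lay on the other side of the threshold: 0.0428 among genes above the median mean, 0.0472 after median centring and 0.0322 with a trended and robust variance prior. Over all settings of that fit it ran from 0.0322 to 0.419. Of the 9 Dclk1 probe sets 8 were higher in distal 1 and 2, with differences from -0.12 to 1.00. Enteric neurons also express Dclk1. Of 7 listed neuronal markers 1, Snap25 (difference 1.14), was higher in distal libraries in the 4-library fit, where 7.71% of all genes were. The summed neuronal level was 12.86, 12.45 and 12.17 in proximal 1, 2 and 3 and 12.72, 12.97 and 12.44 in distal 1, 2 and 3, with all 7 marker means above the lower quartile. The part of neurons in the Dclk1 values was not tested.

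Avil, the actin-binding protein advillin of the tuft cell apex, measured 8.42, 7.83 and 7.87 in proximal 1, 2 and 3, and 7.89, 8.30 and 8.35 in distal 1, 2 and 3. As for Trpm5, the 3 highest values were in proximal 1, distal 2 and distal 3. The difference was 0.14 as labelled (SE 0.21, limma adjusted p = 0.860) and 0.25 in the 4-library fit (SE 0.16, limma adjusted p = 0.350), which fell to 0.04 without distal 2 and rose to 0.45 without distal 1. Il25, the cytokine by which tuft cells activate innate lymphoid cells, measured 6.24, 6.01 and 5.75 in proximal and 6.18, 5.90 and 6.26 in distal libraries, in order of their number. All 6 values were under that lower quartile. The Il25 difference was 0.11 as labelled (SE 0.17, limma adjusted p = 0.859) and 0.16 in the 4-library fit (SE 0.16, limma adjusted p = 0.525), with 0.02 without distal 1 and 0.30 without distal 2.

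Siglecf, a sialic acid binding lectin of intestinal tuft cells and of eosinophils, measured 6.94, 7.97 and 7.99 in proximal 1, 2 and 3, and 6.76, 7.08 and 8.50 in distal 1, 2 and 3. The libraries fell in the same high and low sets as for Sucnr1, with distal 3 highest. As labelled the means were 7.63 ± 0.60 (SD, n = 3) in proximal and 7.45 ± 0.93 (SD, n = 3) in distal libraries, with a difference of -0.19 (SE 0.51, limma adjusted p = 0.928). Without proximal 1 and distal 3 the difference was -1.06 (SE 0.14, limma adjusted p = 0.00903), a 2.08-fold lower level in distal libraries. Of the 6 measured eosinophil markers, all had means under the lower quartile of the arrays. The peroxidase Epx ranged from 5.27 to 5.91 and the granule protein Prg3 from 4.53 to 5.33, both highest in distal 3, as Siglecf was. Prg2 ranged from 5.24, in distal 3, to 6.46, and the chemokine receptor Ccr3 from 3.65 to 3.92. The summed level of the 6 was 8.27, 7.80 and 7.77 in proximal 1, 2 and 3. It was 8.31, 8.07 and 8.07 in distal 1, 2 and 3. Of the 6, Alox15 was higher in distal libraries in the 4-library fit (difference 1.25), where 7.71% of all genes were. The others did not pass. The part of eosinophils was not tested. Of 8 macrophage markers 3 were lower in distal libraries in the 4-library fit, where 11.5% of all genes were. The 3 were Cd68 (-0.88), Adgre1 (-0.90) and C1qa (-1.395). The summed level of the 8 was 13.52, 13.32 and 13.67 in proximal 1, 2 and 3. It was 13.27, 12.98 and 13.37 in distal 1, 2 and 3. The part of macrophages in the Siglecf and Sucnr1 values was not tested.

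Lrmp, an endoplasmic reticulum membrane protein found in tuft cells and in lymphocytes, measured 10.38, 8.58 and 8.65 in proximal 1, 2 and 3, and 10.05, 10.24 and 9.12 in distal 1, 2 and 3. Proximal 1 was the highest library, and distal 3 lay between the high and the low values. The group means were 9.20 ± 1.02 (SD, n = 3) in proximal and 9.80 ± 0.60 (SD, n = 3) in distal libraries, and they differed by 0.60 (SE 0.55, limma adjusted p = 0.824). In the 4-library fit it was 1.53 (SE 0.12, limma adjusted p = 0.00214), a 2.89-fold higher level in distal libraries. Of 7 B and plasma cell markers 4 were higher in distal libraries in that fit, where 7.71% of all genes were. The 4 were Cd79a (1.47), Cd79b (1.65), Ms4a1 (2.18) and Cd22 (1.70). Jchain (-0.08), Mzb1 (0.37) and Pax5 (0.04) did not pass. Ms4a1, which encodes CD20, measured 8.58, 6.78 and 6.86 in proximal and 9.09, 8.90 and 5.69 in distal libraries, in order of their number. In distal 3 all 4 of these B cell genes had their lowest value, while Lrmp there was higher than in proximal 2 and 3. The summed level of the 7 markers, most of it from Jchain, was 14.16, 13.67 and 13.74 in proximal 1, 2 and 3. It was 13.74, 13.90 and 13.44 in distal 1, 2 and 3. The mean of Pax5 lay below the lower quartile. The part of B cells in the Lrmp values was not tested.

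**Figure D2:**
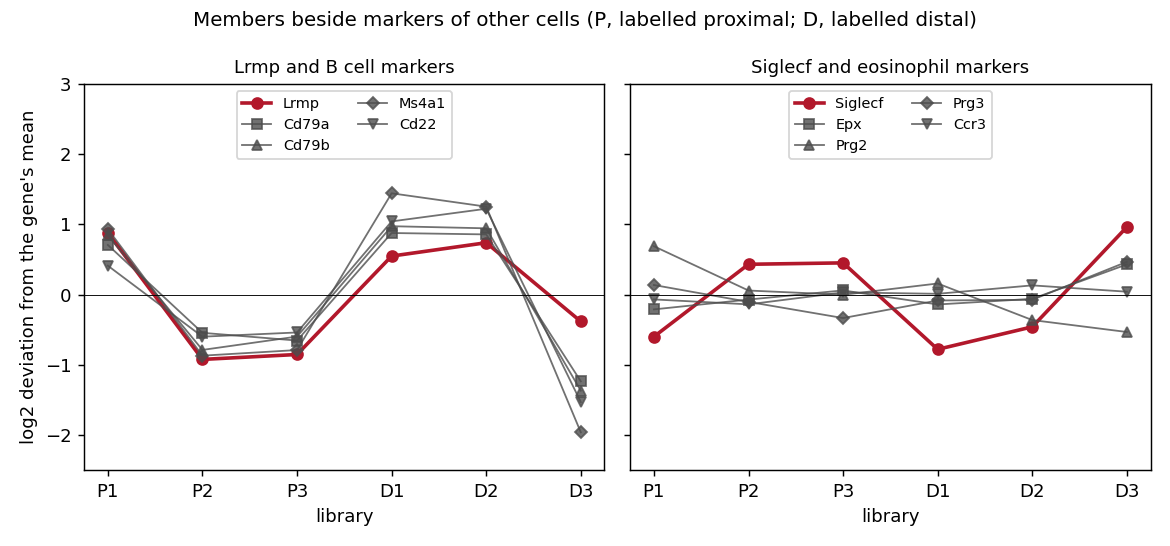
Deviation of each gene from its own mean over the 6 libraries (log2, vertical axis) for Lrmp beside 4 B cell markers and for Siglecf beside 4 eosinophil markers, with P for libraries labelled proximal and D for distal. The B cell markers drawn are the 4 of 7 that passed in the 4-library fit. They are high with Lrmp in P1, D1 and D2 and lowest in D3, where Lrmp is not lowest. On the right Siglecf, Epx and Prg3 are highest in D3, while Prg2 is highest in P1 and lowest in D3. Alox15, the only eosinophil marker that passed in that fit, is not drawn.

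**Figure D3:**
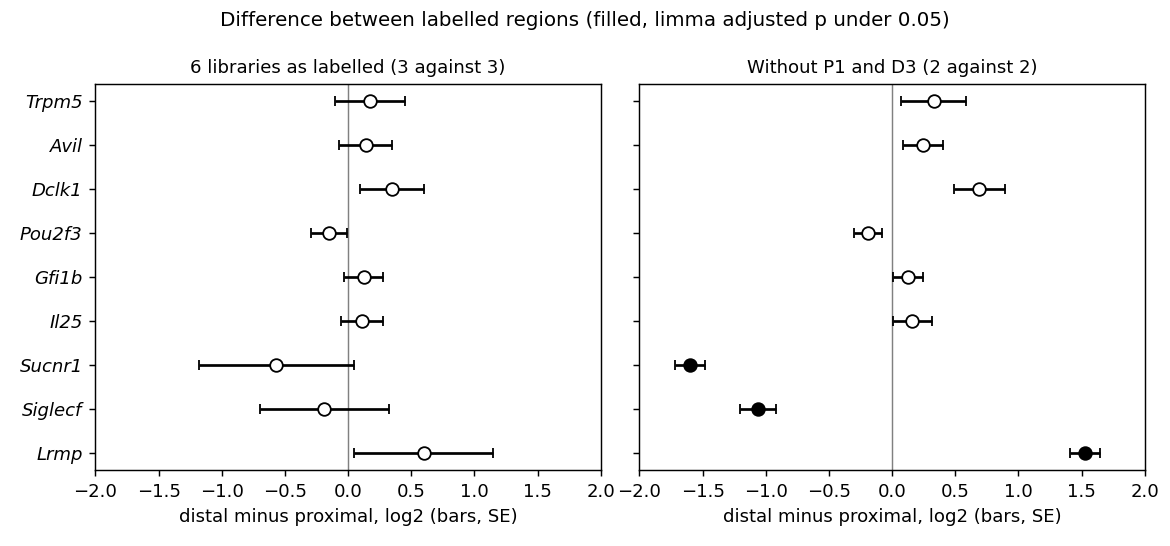
Distal minus proximal difference (log2, horizontal axis, bars are SE) of the 9 genes with all 6 libraries as labelled and without P1 and D3. Filled points passed the test, which holds for Sucnr1, Siglecf and Lrmp on the right and for no gene on the left.

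For the members with values spanning at least 1 log2 unit, the genes of most similar course over the 6 libraries were found by the root mean square difference of deviations from each gene's mean. For Sucnr1 these were Nkain1 (0.060), Prex1 (0.078) and Srl (0.133), and 19 genes lay within 0.2. For Siglecf they were Nrgn (0.041), Ppp2r3a (0.101) and Pgbd5 (0.103), with 25 genes within 0.2. For Lrmp they were Uox (0.072), Rasd2 (0.093) and Airn (0.107), with 23 within 0.2. For Dclk1 they were Enah (0.056), Ccdc149 (0.064) and Isl2 (0.065), and 640 genes lay within 0.2, so its course was shared by many genes. None of these 12 genes is in the lists of tuft cell genes used here.

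A further list of 60 tuft cell genes, written by role without the 9 members, had 52 measured genes. As labelled 0 of 52 passed (limma), where 0% of all genes were called, and 1 had an unadjusted p under 0.05. In the 4-library fit 14 of 52 (26.9%) passed, where 19.2% of all genes did, 6 of them higher in the distal and 8 in the proximal pair. After median centring 12 passed, split 8 and 4, and relative to epithelial markers 11 passed, split 8 and 3. Single genes below are given as deposited, and which of them passed under those scalings is not shown. With 1 more library left out, 0 passed without proximal 2 or proximal 3, 7 without distal 1 and 2 without distal 2. The median difference of the 52 genes was 0.01, and that of all genes was -0.045. The genes did not move in 1 direction.

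In the taste-type cascade 1 of 9 measured genes passed, Gng13, a G protein gamma subunit, at -0.48 (SE 0.10, limma adjusted p = 0.0337). Its values were 8.30, 8.79 and 8.81 in proximal and 8.30, 8.35 and 8.76 in distal libraries, in order of their number. The inositol trisphosphate receptors Itpr3 (0.32) and Itpr2 (0.02), the brightest of this group, did not pass. Among 7 transcription factors Spib, which tuft cells, M cells and B cells express, was higher in distal libraries at 0.93 (SE 0.12, limma adjusted p = 0.00760). It measured 9.97, 9.01 and 9.18 in proximal and 10.05, 9.99 and 9.36 in distal libraries, the same high and low libraries as Lrmp. Sox9 (0.50) and Sox4 (-0.32) did not pass.

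Of 5 measured genes of lipid mediator synthesis 1 was higher and 1 lower in distal libraries in the 4-library fit. Hpgds, which makes prostaglandin D2, was higher in distal libraries by 0.98 (SE 0.14, limma adjusted p = 0.0116), and Ltc4s, which makes leukotriene C4, was lower (-0.67, SE 0.14, limma adjusted p = 0.0332). Hpgds measured 8.89, 8.12 and 8.04 in proximal and 8.90, 9.22 and 8.26 in distal libraries, and Ltc4s 7.70, 7.77 and 7.79 in proximal and 7.28, 6.95 and 7.82 in distal libraries. The other 3 of 5 measured genes of this group did not pass, among them the phospholipase Pla2g4a (0.13) and Alox5ap (0.34), the activator of 5-lipoxygenase. In the cytokine and transmitter group of 5, the interleukin receptor subunit Il4ra was lower (-0.83) and Chat, which makes acetylcholine, higher in distal libraries (0.52). Chat ranged from 4.47 to 5.21, all under the lower quartile, and the part of other cells in its values was not tested. The receptor subunits Il13ra1 (-0.12) and Il17rb (0.14) did not pass.

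Of 12 signalling genes of a kind shared with blood cells, the phosphatase Ptpn6 (-0.54) and the GTPase Rac2 (-0.48) were lower and the adaptor Skap2 (0.57) higher in distal libraries. Ptpn18 (0.19) and Fyb (-0.01) did not pass. Of 6 T cell markers 4 were also lower in distal libraries in that fit, where 11.5% of all genes were. The 4 were Cd3e (-1.33), Cd3g (-2.39), Cd8a (-1.84) and Cd5 (-0.69). Each was highest in proximal 2, proximal 3 and distal 3, as Ptpn6 and Rac2 were. The summed level of the 6 T cell markers was 11.09, 11.94 and 12.13 in proximal 1, 2 and 3. It was 10.79, 10.81 and 11.83 in distal 1, 2 and 3. Of 6 markers common to all leukocytes 0 passed, and the part of these cells was not tested. Of 6 cytoskeletal genes Smpx (1.37) and the actin-binding nebulette Nebl (1.04) were higher in distal libraries, while Krt18 (-0.06) and Lima1 (0.35) did not pass. Of 8 smooth muscle markers 2 were also higher in distal libraries, Des (0.62) and Synm (0.98), where 7.71% of all genes were. The median difference of the 8 was 0.37. Their summed level was 16.66, 16.45 and 16.30 in proximal 1, 2 and 3 and 16.70, 16.73 and 16.68 in distal 1, 2 and 3. The part of muscle in the Smpx and Nebl values was not tested. Of 8 further markers 3 were lower in distal libraries, namely Cwh43 (-2.05, SE 0.22, limma adjusted p = 0.00460), Tspan6 (-0.78) and Bpgm (-0.57). Cd24a (0.01) and Pygl (-0.18) did not pass.

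The genes listed here as tuft cell genes were thus not high in the same libraries. Several are also expressed by other cells, as given above, and the part of those cells in these orders was not tested. The 3 highest values lay in proximal 2, proximal 3 and distal 3 for 2 members, Sucnr1 and Siglecf, and for 7 of 52 others (13.5%), where 23.7% of all genes had that order. They lay in proximal 1, distal 1 and distal 2 for Dclk1, Lrmp and 8 others (15.4%), against 16.9% of all genes. In proximal 1, distal 2 and distal 3 they lay for Trpm5, Avil, Gfi1b and 11 others (21.2%), where 3.41% of all genes and 3 of 97 listed markers of other cells had that order. The 11 were Plcg2, Alox5, Alox5ap, Il17rb, Fyb, Matk, Inpp5d, Pik3r5, Bmx, Sh2d6 and Nebl. An order needs no gap between libraries, for these or for all genes, and some gaps were narrow. Alox5ap measured 8.43 in distal 3 and 8.42 in proximal 3 and distal 1, and Inpp5d spanned 0.29 over the 6 libraries. Wider spans were 1.14 for Sh2d6 and 0.96 for Matk. Sh2d6, an adaptor, measured 8.84, 8.34 and 8.18 in proximal and 8.07, 9.21 and 8.93 in distal libraries. Matk, a tyrosine kinase, measured 8.36, 7.82 and 7.89 in proximal and 7.40, 8.26 and 8.32 in distal libraries. Those libraries carry both labels and all 3 numbers, and these orders were noticed in the data, so they are given with no test.

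**Figure D4:**
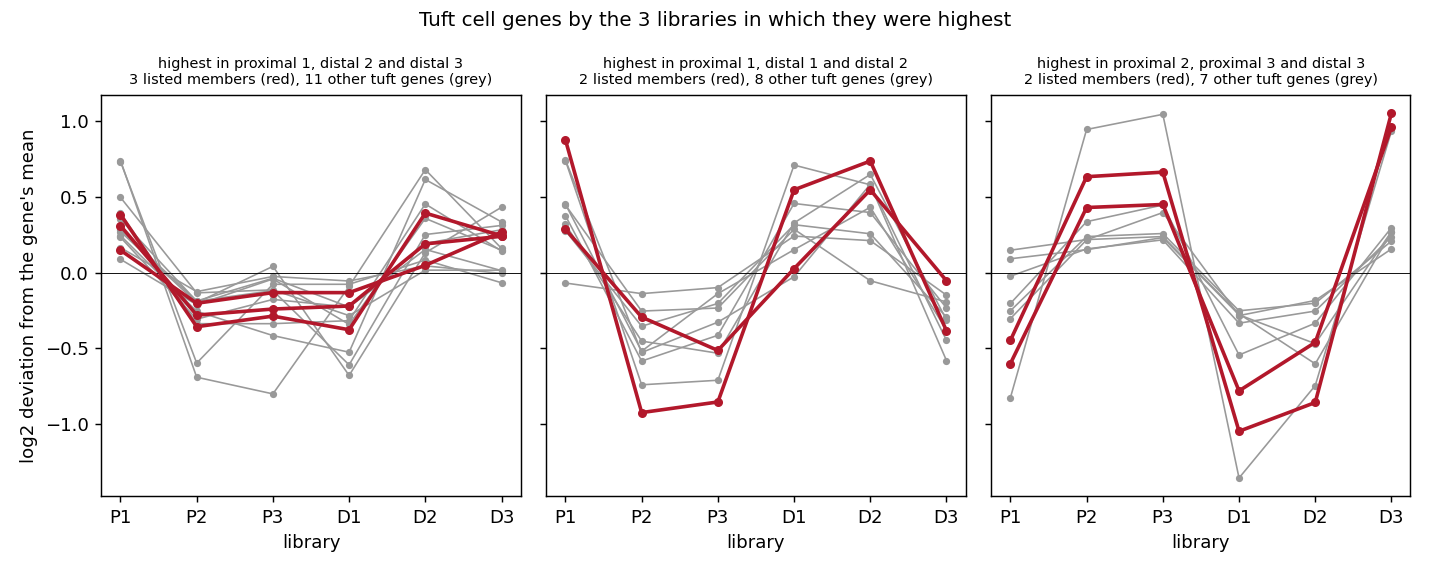
Deviation from each gene's mean (log2, vertical axis) in the 6 libraries for tuft cell genes, sorted by the 3 libraries in which they were highest, with the 9 members in red where they fall in a panel and the other listed tuft cell genes in grey. Trpm5, Avil and Gfi1b with 11 others are in the left panel, Dclk1 and Lrmp with 8 others in the middle and Sucnr1 and Siglecf with 7 others on the right.

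Markers of the other listed cells in the 4-library fit are to be read beside the 19.2% of all genes called. Of 10 enteroendocrine markers 1 was higher and 2 were lower in distal libraries, and of 6 fibroblast markers 0 passed. Of 7 markers of type 2 innate lymphoid cells, which respond to Il25, 1 was lower, and the cytokine Il13 ranged from 4.26 to 4.50, below the lower quartile throughout. Of 9 mast cell markers 1 was higher and 2 were lower. Of 7 megakaryocyte and erythroid markers, cells in which Gfi1b acts, 0 passed.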

How the data were processed

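RNA of 6 libraries was amplified with NuGEN Ovation kits and hybridised to single-colour arrays, per the labels' protocols. The deposited values are log2 expression per probe set, which the authors made with RMA in Partek 6.5, per the submitters' processing notes. They run from 2.91 to 15.16. For the background setting nothing is given in the sources used here. RMA hides a shift shared by most genes.

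Of 45101 probe sets, 64 controls were left out and 34945 carried 1 gene symbol, updated through the gene identifier with a RefSeq table (GRCm38.p6, names only), which gave 18193 genes. Libraries were grouped and numbered by their titles. The difference, distal minus proximal, was fitted per gene in R 4.3.3 with limma 3.58.1 (lmFit, eBayes, two-sided, p adjusted by Benjamini-Hochberg over all genes, threshold 0.05), and the fit was tested on simulated data. The number of arrays limits the precision. Members, lists, tests and the 4-library fit were chosen with earlier results of these data known. Named besides the members were other tuft cell genes past the threshold in the 4-library fit, the 2 brightest others of each role, and the nearest 3 genes of each wide-ranging member. Genes given by library order, and markers of other cells other than the brightest, were named after their values were seen, and the motif was chosen after the promoters were read. Alternatives were a replicate block, a filter on low genes, probe set means, quantile and median scaling, another variance prior, array weights, scaling to epithelium, a stricter threshold and leaving out each library.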

Additional observations from a re-analysis of the deposited data

How the results depend on the processing

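As labelled, 0 genes, 0 members and 0 other tuft cell genes passed under each alternative run except array weights, which called 5579 genes, 3 members and 16 others. The replicate block called 0 of the 9 members, 0 others and 0 genes. The labels do not say that a shared number means a shared animal, so the numbers were not taken to pair the libraries. Deviations of equal numbers correlated at 0.677, -0.448 and 0.678, and those of unequal numbers ran from -0.767 to 0.728. They carry the mismatch of proximal 1 and distal 3 with their labels, so they cannot show whether a number stands for an animal. No block was possible in the 4-library fit, whose labels share 1 number. In that fit a threshold of 0.01 gave 1112 genes and 3 others in place of 3494 and 14. A filter that left out genes under the median mean gave 9 others, with fewer genes tested. It kept 2 members, Dclk1 and Lrmp, and both passed. Sucnr1 and Siglecf were not tested under that filter. Leaving out 1 of the 4 libraries, with the lone library assumed to vary like the other pair, gave 146 to 1633 genes, 0 to 3 members and 0 to 7 others. Without proximal 2, or without proximal 3, the members called were 0, with adjusted p of 0.0755 and 0.0834 for Sucnr1, 0.0809 and 0.0834 for Lrmp, and 0.146 and 0.167 for Siglecf. Over all settings of that fit the adjusted p reached down to 0.000484 for Sucnr1, 0.000403 for Lrmp and 0.00561 for Siglecf. With 1 library left out, the sign turned for 3 differences, none of them called. As labelled Il25 ran from -0.012 without proximal 3 to 0.233 without proximal 1, and Siglecf from -0.713 without distal 3 to 0.157 without distal 1. Trpm5 in the 4-library fit ran from -0.055 without distal 2 to 0.715 without distal 1. Scaling to epithelial markers moved the median difference of all genes in that fit from -0.045 to 0.082. The cause of these changes was not tested.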
